A study of Oryza sativa Japonica Group with 4 samples.

Results

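NAC proteins are a family of plant transcription factors with a conserved DNA-binding domain at the amino terminus and a variable activating region behind it, and they bind DNA as dimers. Drought, salt and abscisic acid (ABA) switch on a group of them in rice leaves. Some family members drive leaf senescence, the ordered dismantling of a leaf in which chlorophyll is broken down and nitrogen is moved to other organs. The 5 NAC genes described here were chosen by identifier among the 33744 genes of the deposited table. They are SNAC1 (Os03g0815100), SNAC2 (Os01g0884300, deposited as OsNAC6), OsNAC5 (Os11g0184900, deposited as NAC5), OsNAC10 (Os11g0126900, deposited as NAC122) and NAP (Os03g0327800, deposited as NAC58). The deposited description of NAP calls it a positive regulator of leaf senescence, and that of OsNAC10 names drought tolerance. All 5 passed the filter of a mean FPKM of at least 1.

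RNA was sequenced from the leaves of Japonica rice (Oryza sativa) seedlings aged 14 d that had been under drought for 6 h. OE13, labelled drought resistant, and OE13-2KR/oswox13-1, labelled drought sensitive, had 2 libraries each, and paired values below are replicate 1, then replicate 2. By its name the second line carries both a 2KR form and the oswox13-1 background, whose parts in a difference cannot be told apart. No watered and no unmodified plants were among the samples, so the values compare drought-treated lines with each other and do not show induction by drought. The sources used here do not give the promoter behind either form, the number of independent lines, or whether replicates came from separate plants. In such leaf samples, fewer cells of a type and less RNA per cell cannot be told apart.

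Summed FPKM (fragments scaled to gene length and library total) was between 931335 and 941593 per library, and the depth behind it is unknown. Os01g0818400, listed as OsWOX8 and taken here as the OsWOX13 locus from general knowledge that the files do not settle, overlapped between the lines, with 22.0 and 75.6 FPKM for OE13 and 27.1 and 49.9 for OE13-2KR/oswox13-1. Leaf markers were high: 4 genes of the Rubisco small subunit and the light-harvesting antenna summed to between 4098 and 14825 FPKM. None of 13 glutelin and prolamin seed storage genes exceeded 1.6 FPKM. The identifier of the 1 root marker looked up was not found among the deposited genes, so no root marker was analysed. The OE13 libraries had leaf sums of 14825 and 7240 and those of the other line 7857 and 4098. All 4 marker log2 fold changes were negative, as were 11462 of the 20174 genes tested. At an unadjusted p under 0.05, 0 of the 4 were lower (limma), beside 12.0% of all genes. The library with the highest leaf sum, OE13 replicate 1, also held the lowest value of each of the 5 NAC genes. Values without that library are given below, and the part of the leaf marker level in the results was not tested.

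All 5 NAC genes had a higher mean in OE13-2KR/oswox13-1 than in OE13. For SNAC2, OsNAC10 and NAP both of its libraries lay above both OE13 libraries, as they did for 23.4% of the 20174 genes tested, and for 0 of the 5 they lay below, against 32.8% of genes. Adjusted over all genes, none of the 5 differences passed the threshold of 0.05 (limma), and 1 of 20174 genes, or 0.00496%, did. At an unadjusted p under 0.05, 1 of the 5, OsNAC10, was higher and 0 were lower, beside a background of 8.00% higher and 12.0% lower. The median log2 fold change was 0.68 for the 5 genes and -0.08 for all genes. Each log2 fold change is OE13-2KR/oswox13-1 minus OE13 on the log2(FPKM + 1) scale, where the added 1 shrinks differences of weakly expressed genes. An exact two-sided permutation test of 2 libraries against 2 cannot go below 0.333.

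**Figure D1:**
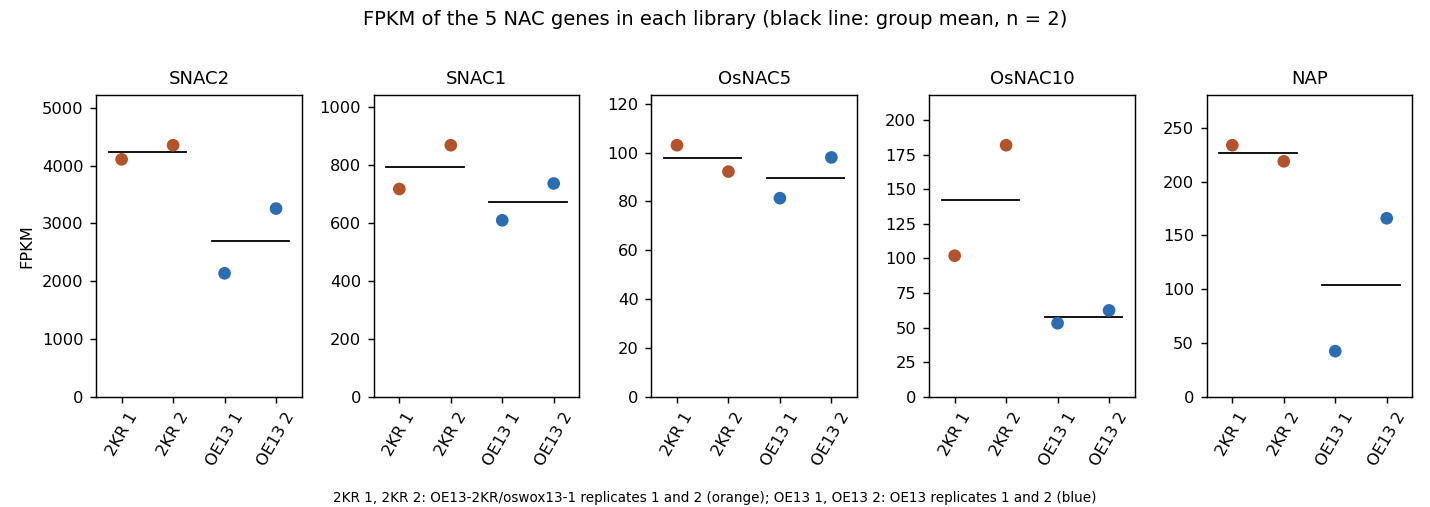
FPKM (vertical axis, linear from 0) of the 5 NAC genes in each of the 4 libraries (horizontal axis), 1 point per library, with a black line at each group mean (n = 2). SNAC2, OsNAC10 and NAP show no overlap between the lines, SNAC1 and OsNAC5 overlap, and the lowest point of every panel is OE13 replicate 1.

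SNAC1 acts in drought tolerance of rice and is known for its activity in guard cells. The gene lies on chromosome 3 (34166100 to 34167521, plus strand, build IRGSP 1.0). The OE13 libraries gave 608 and 735 FPKM, and those of OE13-2KR/oswox13-1 gave 716 and 867. The groups overlapped, since the higher OE13 library lay above the lower library of the other line. Means were 791 ± 107 in OE13-2KR/oswox13-1 and 672 ± 90.4 in OE13 (SD, n = 2 each), which gave a log2 fold change of 0.24 (95% interval -0.33 to 0.80, limma adjusted p = 0.568). Within each line replicate 2 stood 1.21 times as high as replicate 1, beside a ratio of the means of 1.18. Leaving out replicate 1 of OE13, or replicate 2 of OE13-2KR/oswox13-1, gave 0.10.

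SNAC2 responds to cold, salt, drought and wounding and activates stress genes. It lies on chromosome 1 (38398996 to 38401481, minus strand). The OE13 libraries gave 2136 and 3258 FPKM, and those of OE13-2KR/oswox13-1 gave 4111 and 4356. The latter were high and close together, while those of OE13 differed by a ratio of 1.53 and lay below. Means were 4233 ± 173 and 2697 ± 794 (SD, n = 2 each), a ratio of 1.57, with a log2 fold change of 0.68 (95% interval -0.09 to 1.45, limma adjusted p = 0.287). Leaving out OE13 replicate 1 gave 0.38, and leaving out its replicate 2 gave 0.99.

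SNAC2 shares its locus with another annotated gene. Os01g0884350, a hypothetical protein gene on the plus strand (chromosome 1, 38400848 to 38401417), lies wholly within SNAC2, near its start, and covers 22.9% of its span. It gave 109 and 105 FPKM for OE13 and 288 and 319.7 for the other line, with no overlap and a ratio of means of 2.83. Its log2 fold change was 1.49 (95% interval 1.05 to 1.93, limma adjusted p = 0.187), beside 0.68 for SNAC2. No source used here states counting by strand, so reads over the shared stretch cannot be assigned to one gene of the pair, and both values are uncertain.

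OsNAC5 is induced by drought, salt and ABA, forms dimers with other stress NAC proteins and is known to bind the promoter of LEA3. It lies on chromosome 11 (4299277 to 4301784, minus strand). The OE13 libraries gave 81.3 and 98.0 FPKM, and those of OE13-2KR/oswox13-1 gave 103 and 92.2. The groups overlapped, and the difference was the smallest of the 5 genes. Means were 97.5 ± 7.53 and 89.7 ± 11.8 (SD, n = 2 each), with a log2 fold change of 0.12 (95% interval -0.35 to 0.60, limma adjusted p = 0.730). Without OE13 replicate 1 the sign turned, to -0.01. The interval reaches 0.60, so equal levels in the lines are not shown.

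OsNAC10 raises drought tolerance and yield in rice when it is overexpressed in roots. The gene lies on chromosome 11 (1233932 to 1235977, plus strand). The OE13 libraries gave 53.1 and 62.4 FPKM, and those of OE13-2KR/oswox13-1 gave 102 and 182. OE13 was low with close replicates, and the lower library of the other line still stood 1.63 times as high as the higher OE13 library. Means were 142 ± 56.6 and 57.7 ± 6.57 (SD, n = 2 each), a ratio of 2.46. On the log2 scale the difference was 1.23 (95% interval 0.44 to 2.02, limma adjusted p = 0.194; exact permutation p = 0.333). It was the only one of the 5 whose interval lay above 0. Leaving out OE13-2KR/oswox13-1 replicate 2 gave 0.81, leaving out replicate 1 of that line gave 1.64, and leaving out OE13 replicate 1 gave 1.12.

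NAC131 (Os12g0123700, also called ONAC131) is a close relative of OsNAC10 on the duplicated ends of rice chromosomes 11 and 12, and reads of such a pair can be hard to assign. It gave 48.6 and 45.0 FPKM for OE13 and 71.5 and 153 for OE13-2KR/oswox13-1, and like OsNAC10 it was highest in replicate 2 of the latter. Its log2 fold change was 1.15 (95% interval 0.20 to 2.09, limma adjusted p = 0.215). Leaving out replicate 2 of OE13-2KR/oswox13-1 gave 0.60 and leaving out its replicate 1 gave 1.69, and the unadjusted threshold of 0.05 was missed when either OE13 library was left out. Summed over the pair, FPKM was 102 and 107 for OE13 and 173 and 335 for the other line. OsNAC10 made up between 52.2% and 58.8% of that sum in each library. The summed pair did not overlap between the lines, while the split of reads between the 2 genes is uncertain.

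**Figure D2:**
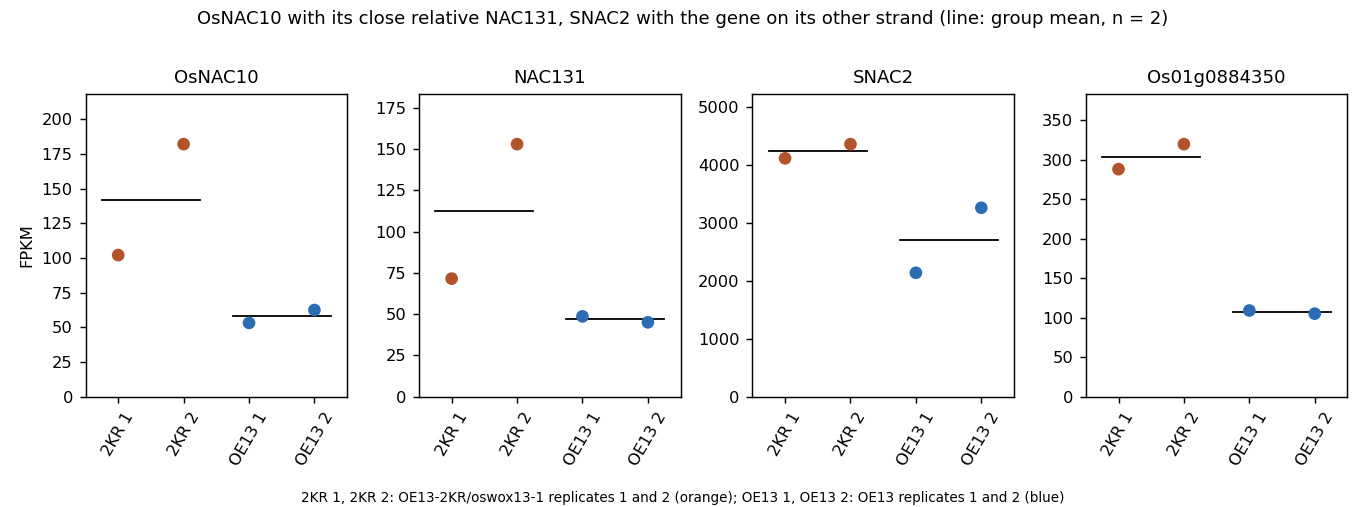
FPKM (vertical axes, linear from 0) in the 4 libraries for OsNAC10, NAC131, SNAC2 and Os01g0884350, 1 point per library, with a black line at each group mean (n = 2). OsNAC10 and NAC131 are both highest in OE13-2KR/oswox13-1 replicate 2, and Os01g0884350 separates the lines at 288 or more against 109 or less, while SNAC2 does so at 4111 or more against 3258 or less.

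NAP links ABA to leaf senescence in rice, where it is known to bind the promoters of chlorophyll breakdown genes. It lies on chromosome 3 (11973989 to 11976381, minus strand). The OE13 libraries gave 42.3 and 166 FPKM, and those of OE13-2KR/oswox13-1 gave 234 and 219. The latter were high and close together, while the OE13 libraries differed by a ratio of 3.92, the widest spread within a line among the 5 genes. Means were 226 ± 10.6 and 104 ± 87.2 (SD, n = 2 each), a ratio of 2.18. The log2 fold change, 1.42, was the largest of the 5, with an interval that included 0 (95% interval -0.15 to 2.99, limma adjusted p = 0.280). Its size rested on OE13 replicate 1: leaving out that library gave 0.45, and leaving out OE13 replicate 2 gave 2.39.

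The 5 genes differed widely in level. SNAC2 was the highest in every library and ranked 12 by mean FPKM among the 20174 genes tested, and SNAC1 ranked 135. NAP, OsNAC10 and OsNAC5 averaged 165, 99.9 and 93.6 FPKM over the 4 libraries. SNAC1 stood at between 0.174 and 0.284 times the FPKM of SNAC2, and at 3.06 times or more that of each of the other 3, in each library. The order of the lower 3 changed between libraries. OsNAC5 stood at 1.01 times OsNAC10 in OE13-2KR/oswox13-1 replicate 1, at 0.506 times in its replicate 2, and at 1.53 and 1.57 times in the OE13 libraries. NAP was above both in 3 libraries and the lowest of the 5 in OE13 replicate 1.

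Across the 60 tested genes that name or description marks as NAC genes, SNAC2 and SNAC1 were the highest. NAC FPKM was summed over the 5 genes and all 90 other NAC genes, those below the filter included. It was 4819 and 6635 for OE13 and 8057 and 9012 for OE13-2KR/oswox13-1, so the sums did not overlap. The 5 genes made up between 60.6% and 65.3% of that sum per library, and SNAC2 alone between 44.3% and 51.0%. In log2 fold change NAP ranked 2, OsNAC10 4, SNAC2 13, SNAC1 34 and OsNAC5 40 of the 60.

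Among chlorophyll breakdown genes, all 6 of the list were higher in both OE13-2KR/oswox13-1 libraries than in both OE13 libraries (background 23.4%). This list, like the members and the other lists, was chosen with earlier results of these data known. Its counts beside the background are therefore a description and no test. At an unadjusted p under 0.05, 5 of 6 were higher and 0 lower (background 8.00% and 12.0%, limma). Adjusted over all genes, 0 of the 6 passed. Their median log2 fold change was 1.36, and leaving out any 1 library kept it between 1.24 and 1.41. RCCR1 (Os10g0389200), the red chlorophyll catabolite reductase, gave 47.7 and 68.7 FPKM for OE13 and 196 and 191 for the other line, with a log2 fold change of 1.74 (limma adjusted p = 0.187). SGR (Os09g0532000), the stay-green protein that sets chlorophyll breakdown going, gave 32.3 and 50.8 for OE13 and 109 and 123 for OE13-2KR/oswox13-1 (log2 fold change 1.49). Both genes were lowest in OE13 replicate 1.

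NYC3 (Os06g0354700), described as a hydrolase of chlorophyll degradation, gave 46.6 and 48.5 FPKM for OE13 and 118 and 132 for OE13-2KR/oswox13-1. PAO (Os03g0146400), the oxygenase that opens the chlorophyll ring, gave 19.4 and 20.0 for OE13 and 50.3 and 52.5 for the other line. For both genes replicates lay close together and the lines far apart. NYC1 (Os01g0227100), a chlorophyll b reductase, gave 552 and 611 FPKM for OE13 and 986 and 1019 for OE13-2KR/oswox13-1. NOL (Os03g0654600), which works with NYC1, differed least, with 24.3 and 28.3 for OE13 and 31.3 and 34.1 for the other line (limma adjusted p = 0.389).

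Set as a percent of each gene's highest library, NAP and the 6 genes stood at different levels within OE13. OE13 replicate 2 held 70.8% of the highest NAP value, while NYC3, PAO, RCCR1 and SGR stood there at 36.8%, 38.1%, 35.1% and 41.4% of theirs. In OE13 replicate 1 NAP stood at 18.1% of its highest value, and the same 4 genes at 35.3%, 36.9%, 24.4% and 26.4%. The other 2 stood higher: NYC1 at 54.2% and 59.9% in the OE13 replicates and NOL at 71.3% and 83.1%, above NAP in both. NAP was thus below all 6 in replicate 1, and in replicate 2 above 5 of them and below NOL. With 4 libraries no relation between NAP and these genes was tested.

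**Figure D3:**
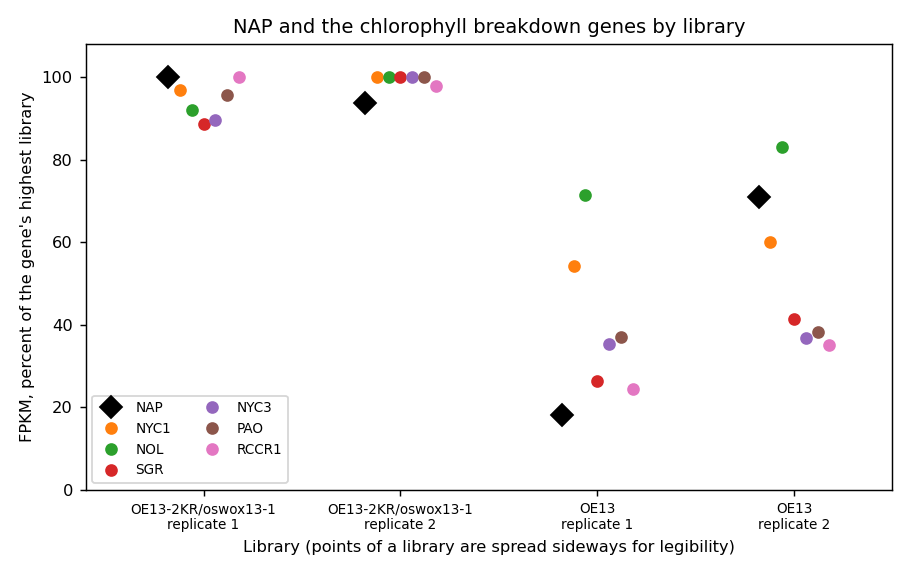
FPKM of NAP and the 6 chlorophyll breakdown genes as a percent of each gene's highest library (vertical axis, from 0) in the 4 libraries (horizontal axis), 1 point per gene and library. In OE13 replicate 2 NAP lies at 70.8%, NYC3, PAO, RCCR1 and SGR between 35.1% and 41.4%, NYC1 at 59.9% and NOL above NAP at 83.1%.

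**Figure D4:**
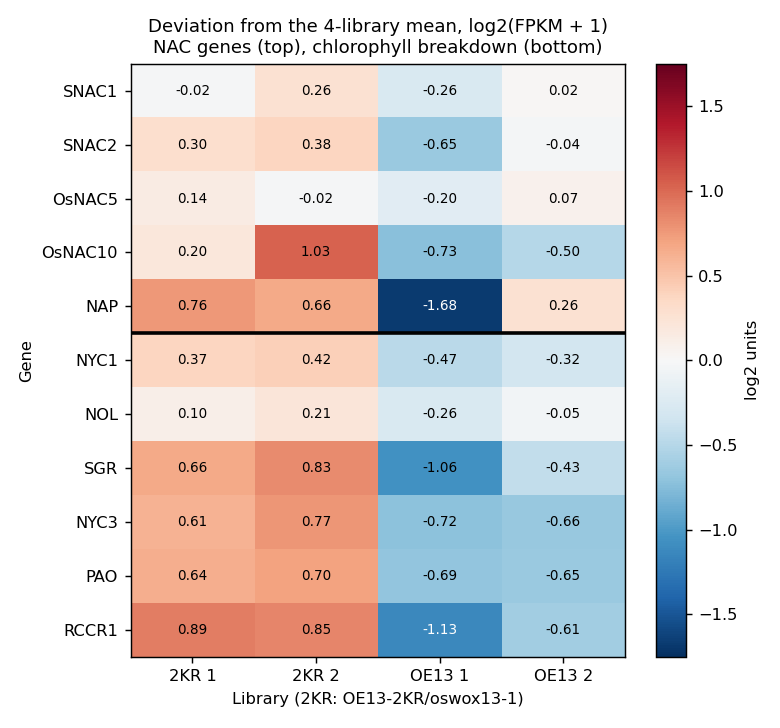
Deviation of each gene (rows) from its own mean over the 4 libraries (columns), in log2(FPKM + 1) units (colour and printed value), for the 5 NAC genes above the black line and 6 chlorophyll breakdown genes below it. OE13 replicate 1 is the lowest column in all 11 rows, and NAP in that library, at -1.68, is the largest deviation shown.

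Among genes tied to the stress NACs by earlier work in rice, SRO1c and LEA3 stood out by unadjusted p. The dehydrin genes RAB16A, RAB16B and RAB16C overlapped between the lines. SRO1c (Os03g0230300), a SNAC1 target that acts in stomatal closure, gave 399 and 704 FPKM for OE13 and 1099 and 1052 for OE13-2KR/oswox13-1. Its log2 fold change was 1.02 (limma adjusted p = 0.209), and 0.61 without OE13 replicate 1. LEA3 (Os05g0542500), a protective protein of drying cells and an OsNAC5 target, gave 55.0 and 72.3 for OE13 and 116 and 177 for the other line (log2 fold change 1.17, limma adjusted p = 0.194). Neither gene overlapped between the lines, nor did PP18 and LIP9 below. Those 4 of the 7 tested genes of the list were wholly higher in OE13-2KR/oswox13-1, beside 23.4% of all genes. PP18 (Os02g0149800, deposited as OsPP2C10), a phosphatase gene regulated by SNAC1, differed less, with 703 and 857 FPKM for OE13 and 920.2 and 952 for OE13-2KR/oswox13-1 (log2 fold change 0.27).

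The dehydrin gene LIP9 gave 2690 and 2295 FPKM for OE13 and 2995 and 4846 for the other line. RAB16A, also a dehydrin gene, overlapped, with 112 and 57.8 for OE13 and 35.5 and 69.8 for OE13-2KR/oswox13-1. Of the 8 genes of this list 7 were tested, since RAB16D lay below the filter. RAB16D gave 0.0943 and 0.162 FPKM for OE13 and 0.026 and 0.0686 for the other line, near the floor and without overlap. At the unadjusted threshold SRO1c and LEA3 were the 2 higher and 0 were lower (background 8.00% and 12.0%), and 0 passed adjusted over all genes (limma). The median log2 fold change was 0.27, 0.13 when OE13 replicate 1 was left out, 0.42 and 0.41 when replicate 1 of OE13-2KR/oswox13-1 or OE13 replicate 2 was, and it was 0.08 with no filter, 0.16 after quantile normalisation and 0.44 under the stricter filter on mean FPKM, 5.

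ABA signalling genes, several of which act upstream of stress NACs, had a median log2 fold change of 0.08. At an unadjusted p under 0.05, 4 of 17 were higher and 0 were lower (background 8.00% and 12.0%), and 0 passed adjusted over all genes (limma). The 4 were the bZIP transcription factor gene ABI5, the kinase genes SAPK1 and SAPK6, and the phosphatase gene PP2C51, which is 70.9% covered by an opposite-strand gene. PP2C51 missed that threshold when replicate 2 of OE13-2KR/oswox13-1 (log2 fold change 0.62) or either OE13 library (1.17 and 1.13) was left out. ABI5 (Os01g0859300) differed most, with 19.2 and 31.0 FPKM for OE13 and 100.5 and 72.5 for the other line (log2 fold change 1.77, limma adjusted p = 0.187). SAPK1 (Os03g0390200) gave 58.0 and 61.5 for OE13 and 105 and 137 for OE13-2KR/oswox13-1, and SAPK6 (Os02g0551100) 35.9 and 40.7 and then 67.3 and 64.7. The ABA-activated kinase genes SAPK8, SAPK9 and SAPK10 had log2 fold changes of 0.01, -0.26 and -0.17. Leaving out replicate 1 of OE13-2KR/oswox13-1 gave a list median of 0.44, and leaving out its replicate 2 gave -0.03.

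For ABA synthesis and breakdown, 0 of 6 genes were higher and 1, ABA8ox2, an ABA-degrading hydroxylase gene, was lower at an unadjusted p under 0.05 (background 8.00% and 12.0%), with 0 past the adjusted threshold (limma). The log2 fold change of ABA8ox2 was -0.72, and -0.38 when OE13 replicate 1 was left out, and it met the unadjusted threshold in 1 of 4 such fits, that without OE13 replicate 2 (-1.06). The median log2 fold change was 0.17. Leaving out replicate 1 of OE13-2KR/oswox13-1 gave 0.50, and leaving out its replicate 2 gave -0.20. NCED3 (Os03g0645900, deposited as OsNCED1), an enzyme of ABA synthesis, overlapped, with 198 and 168 FPKM for OE13 and 169 and 272 for the other line. Each of the 6 genes is covered to 57.6% or more by an opposite-strand gene, so their values are uncertain.

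Of 8 other NAC genes with known stress or senescence roles, at an unadjusted p under 0.05, 2 were higher and 0 lower (background 8.00% and 12.0%), and 0 passed adjusted over all genes (limma), with a median log2 fold change of 0.39. The 2 were NAC131 and OsY37 (Os06g0675600), described as a positive regulator of senescence, which gave 12.0 and 11.8 FPKM for OE13 and 20.6 and 32.4 for OE13-2KR/oswox13-1. ONAC045 (Os11g0127600) had widely spaced OE13 libraries, as NAP did, with 5.01 and 13.0 beside 16.6 and 16.6. OsNAC3 had a log2 fold change of -0.75, between -0.40 and -1.10 with 1 library left out. For OsNAC4 it was -0.34, and the sign turned, to 0.18, when replicate 1 of OE13-2KR/oswox13-1 or OE13 replicate 2 was left out. Leaving out OE13-2KR/oswox13-1 replicate 1 gave a list median of 0.87, and leaving out its replicate 2 gave 0.07.

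**Figure D5:**
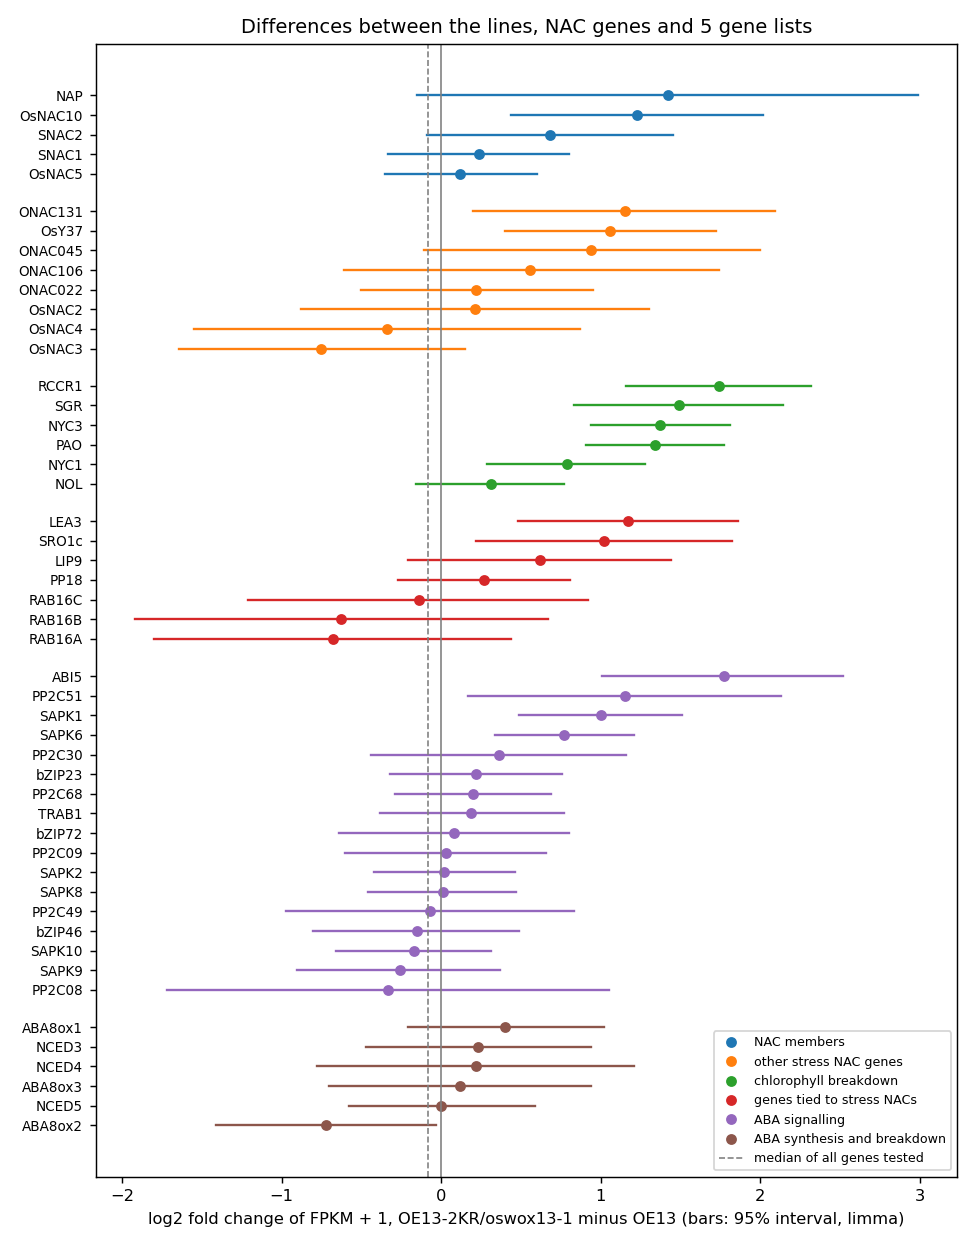
Log2 fold change of FPKM + 1, OE13-2KR/oswox13-1 minus OE13 (horizontal axis), with 95% intervals from limma, for the 5 NAC genes and the tested genes of 5 lists (vertical axis, 1 row per gene). The dashed line is the median of all genes tested, -0.08, and OsNAC10 is the only one of the 5 NAC genes whose interval lies above 0, as do 5 of the 6 chlorophyll breakdown intervals.

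Likeness of pattern was measured as the Euclidean distance between profiles of log2(FPKM + 1) over the 4 libraries, each centred on its own mean, and it describes 4 points per gene. SNAC1 and OsNAC5 varied little, and 685 and 864 genes lay within 0.2 of them. Nearest were RBPI (Os02g0221500) and Os12g0417100 to SNAC1, and Os10g0133000 and Os03g0288800 to OsNAC5. SNAC2 was nearest to Os12g0230600, a gene of unknown function (distance 0.0735), which gave 57.5 and 88.3 FPKM for OE13 and 114 and 113 for the other line, and next to Os04g0674700, described as similar to an AMP-binding protein (distance 0.0834). OsNAC10 was nearest to a cytochrome P450 gene, Os03g0760300 (distance 0.113), and next to Os01g0101300 (distance 0.125). The P450 gene gave 0.384 and 0.694 FPKM for OE13 and 1.93 and 4.05 for OE13-2KR/oswox13-1. Like Os12g0417100 and Os10g0133000, it lies near the floor, where the added 1 shrinks differences. Its ratio of means was 5.55, beside 2.46 for OsNAC10. Opposite-strand genes cover 82.4% of Os10g0133000, 71.4% of Os04g0674700 and 74.1% of Os01g0101300, so their values are uncertain.

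No gene lay within 0.2 of NAP. Its nearest were OsMST3 (Os07g0106200, distance 0.259), described as similar to a hexose transporter, and Os04g0486950 (distance 0.330), described as similar to malate synthase, an enzyme of the glyoxylate cycle. OsMST3 gave 25.4 and 89.1 FPKM for OE13 and 153 and 115 for OE13-2KR/oswox13-1. The malate synthase gene gave 49.5 and 150.4 for OE13 and 269 and 267 for the other line. Both were picked for their likeness to NAP in these same libraries. By that choice they too were lowest in OE13 replicate 1 and intermediate in OE13 replicate 2. Nearest to the mean profile of the 5 genes was Os08g0558100, an EF-hand protein gene (distance 0.0644), with 21.1 and 35.6 FPKM for OE13 and 44.6 and 48.6 for OE13-2KR/oswox13-1. Os12g0250700 (distance 0.0706) and the oxygenase gene Os07g0169600 (distance 0.0970) came next. Os12g0250700 lies near the floor, with 0.212 and 0.897 FPKM for OE13.

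The authors' deposited table of genes marked up holds 1207 genes, of which 1135 carry exactly 1 identifier of the type used for FPKM. Of the 931 of them tested here, 99.8% were lower in OE13-2KR/oswox13-1. None of the 5 NAC genes, whose means were all higher in that line, was among those 1135. The authors' list marked down, whose identifiers were not paired with those of the FPKM table, was not used here, so these lookups do not show whether the authors called any of the 5.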

How the data were processed

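RNA from leaves was sequenced as paired reads of 150 nt in 4 libraries, 2 per genotype, per the labels' protocols, although the labels name the molecule as genomic DNA. Sample titles gave the groups and replicate numbers. Nothing states that libraries of a line came from separate plants, so p-values measure only how far these libraries differ, and that may be technical. Values are FPKM as deposited by the authors. The submitters' processing notes list the tools DESeq2 1.38.3, featureCounts 2.0.0 and HISAT2 2.2.1 without their roles, and IRGSP 1.0 as genome build, taken as that of the coordinates; how FPKM was computed is not stated there. A deposited list of genes marked up holds a log2 fold change and a p-value per gene, per the file headers, and was used to look up the members and the direction of its genes in the FPKM. A further 11 value columns without sample labels were not used.

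Because FPKM are not counts, limma 3.58.1 (R 4.3.3) with trended variance was applied to log2(FPKM + 1). It covered the 20174 genes whose mean FPKM was 1 or more, with Benjamini-Hochberg adjustment over all of them and a threshold of 0.05. There were 2 residual degrees of freedom, and the prior added 3.3. The depth is unknown, so no counting intervals are given. In a test on simulated data, the procedure recovered no log2 fold change of 1, few of 2 and most of 4, and it made some false calls. Failing the adjusted threshold therefore does not show that a difference of 1 or 2 is absent.

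The members and lists were chosen with earlier results of these data known. List genes were matched by identifier and by deposited name or description. The text names the 5 members, up to 4 genes per list with the smallest unadjusted p under 0.05, further list genes by value for their role (such as NYC1 and NOL), genes overlapping a member, the 2 nearest profiles of each member and the 3 nearest to their mean. Promoter motif counts and protein identities were planned and not run here. Alternatives were a pseudocount of 0.1, no filter, a mean FPKM of at least 5, median ratio scaling, quantile normalisation, a replicate block, and each library left out.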

Additional observations from a re-analysis of the deposited data

How the results depend on the processing

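Under 10 alternatives, SNAC1, SNAC2, OsNAC10 and NAP kept positive log2 fold changes, and none of the 5 genes passed the adjusted threshold (limma). Leaving out 1 library at a time gave 0.10 to 0.37 for SNAC1, 0.38 to 0.99 for SNAC2, -0.01 to 0.26 for OsNAC5, 0.81 to 1.64 for OsNAC10 and 0.45 to 2.39 for NAP. The other 6 settings gave 0.19 to 0.32, 0.68 to 0.82, 0.09 to 0.21, 1.22 to 1.31 and 1.37 to 1.5. Of the 5 genes, 1 was higher at an unadjusted p under 0.05, 2 with quantile normalisation, and 1 to 2 without 1 library; the cause was not tested.

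Over all genes, the median log2 fold change was -0.08 as deposited and 0.03 after quantile normalisation. Of the genes past an unadjusted p of 0.05, 40.0% were higher in OE13-2KR/oswox13-1 as deposited, 49.5% with median ratio scaling and 52.8% with quantile normalisation. Leaving out 1 library gave 783 to 1580 higher genes, 1000 to 3382 lower genes and 0 to 5 passing adjusted. That last number was 1 as deposited, 0 without a filter and 2 with quantile normalisation; the cause was not tested.

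Same-numbered libraries are not stated to share more than a number. Their deviations from the group means correlated at -0.0915 over genes. The leaf marker sum was higher in replicate 1 of both lines, with 14825 and 7240 FPKM for OE13. For OE13-2KR/oswox13-1 the sums were 7857 and 4098. Whether same-numbered libraries share a batch was not tested. With the replicate block, 0 genes passed adjusted, 1239 were higher and 2122 lower at the unadjusted threshold, and 2 of the 5 NAC genes were higher, OsNAC10 (limma adjusted p = 0.287) and NAP (limma adjusted p = 0.299). Unknown depth and 2 libraries per line limit what any single gene can show.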

Other observations

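Beyond the 5 genes, 55 further NAC genes were tested, picked by name or description. Log2 fold changes were above 0 for 38 of them and below 0 for 17. Over all 20174 genes tested, 8712 were above 0 and 11462 below. The median of the 55 was 0.31, beside -0.08 over all genes. At an unadjusted p under 0.05, 13 were higher (background 8.00%) and 1, ONAC007, was lower (background 12.0%), and 0 passed adjusted over all genes (limma). Among the 13 were NAC131 and OsY37, already counted above. ONAC103 (Os07g0683200) had widely spaced OE13 libraries, as NAP did, with 91.3 and 277 FPKM for OE13 and 371 and 453 for OE13-2KR/oswox13-1. ONAC015 (Os07g0684800) gave 97.7 and 148 for OE13 and 202 and 341 for the other line. ONAC028 (Os02g0555300) gave 3.17 and 6.35 for OE13 and 12.1 and 18.3 for the other line, but an opposite-strand gene covers its whole span, so its values are uncertain. The genes named in these paragraphs were chosen after their values were seen.

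The deposited description names senescence for 32 further tested genes. At the unadjusted threshold (limma) 7 were higher and 2 were lower (background 8.00% and 12.0%), 0 passed adjusted, the median log2 fold change was 0.25, and 5 of the 7 were the chlorophyll breakdown genes NYC1, NYC3, SGR, PAO and RCCR1. The other higher genes were OsY37 and OsFBK12 (Os03g0171600), an F-box gene described as regulating leaf senescence, which gave 118 and 112 FPKM for OE13 and 197 and 236 for the other line. The lower ones were a gene described as similar to SAG102 and DOS (Os01g0192000), a zinc finger gene described as a negative regulator of leaf senescence, which gave 197 and 252 for OE13 and 93.0 and 97.5 for the other line. DOS was lower without overlap between the lines, as were 32.8% of all genes tested. Its log2 fold change was -1.22 (limma adjusted p = 0.187). An opposite-strand gene covers 64.0% of DOS, so its values are uncertain.

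SNAC1 and SNAC2 share the deposited gene ontology term for positive regulation of the response to water deprivation. The 11 other tested genes with that term had a median log2 fold change of 0.18, and at the unadjusted threshold (limma) 3 were higher and 1 was lower (background 8.00% and 12.0%), with 0 past the adjusted threshold. The 3 were the calcium-dependent kinase gene CDPK9 (40.6 and 39.8 FPKM for OE13, 70.2 and 94.3 for OE13-2KR/oswox13-1, uncertain since an opposite-strand gene covers 89.7% of it), OsMYB2 (60.5 and 60.8, then 96.4 and 129) and OsMYB3R-2 (58.8 and 62.1, then 90.7 and 105). SIK1, a receptor-like kinase gene, was the lower one, with 2.22 and 2.41 for OE13 and 0.860 and 0.512 for the other line. SNAC1, SNAC2 and OsNAC5 share the term for positive regulation of the response to salt stress. Its 14 other tested genes, some with both terms, had a median log2 fold change of 0.03. Of these, 2 were higher and 2 lower at the unadjusted threshold, with 0 past the adjusted threshold (limma).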
